A study of Trichechus manatus latirostris with 11 samples.

Results

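Neuronal and synaptic genes are the genes whose products build the synapse, carry fast transmission between nerve cells or shape the nerve cell skeleton. A list of 54 such genes was matched by RefSeq symbol to the transcript records of the deposited table of manatee blood RNA, without regard to the version number of a record. Of the 54 genes, 24 had at least 1 record, and RIMS2 had 3, which gave 26 of the 15298 records. The other 30 genes had no record under their symbol and were not analysed here. They included SNAP25, SYN2, SYN3, MAP2, DCX, GAD1, GRIN1 and RBFOX3. A symbol was available for 10080 of the 15298 records (65.9%), and each of the 15298 records had a mean above 0 in both groups.

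RNA came from buffy coats, the layer of white blood cells and platelets of centrifuged blood, of adult Florida manatees, and was depleted of ribosomal and globin RNA before sequencing. The red tide group comprised 4 animals treated at Lowry Park Zoo for illness after a bloom of toxic algae. Per the study's methods, 2 of them were sampled on arrival and 2 after treatment of a week, and which library came from which animal is not known here. The control group comprised 7 animals, of which 4 were sampled at Crystal River, 2 at the Indian River Lagoon and 1 at the zoo while it recovered from pneumonia. Sampling place and date differed along with the group. The methods describe immediate freezing of the red tide samples, but also RNAlater for each animal, and the sample labels give only RNAlater. Whether storage differed is thus unclear. Place, date, any difference in storage, treatment and red tide exposure cannot be told apart.

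At a chemical synapse, the presynaptic active zone docks and primes vesicles that release transmitter when calcium enters. Receptors in the opposing membrane are held in place by a postsynaptic scaffold, and adhesion molecules span the cleft between the cells. Most of these genes are known chiefly from nerve and endocrine cells. Several of them, such as NCAM1 on natural killer cells and ANK2 in heart muscle, are also known from other tissues.

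The deposited values were the authors' mean normalized counts, that is, reads divided by the size factor of their library. They were given over 4 libraries, over 7 libraries and over all 11. The group means are named below by their number of libraries, because the columns do not name the groups. In every record the overall mean equalled the 4-library and 7-library means weighted by 4 and 7 (largest relative deviation 3.3e-09), which are the sizes of the red tide and control groups. The match of means to groups rests on these sizes, and the title of the deposited table also names red tide first. The sources used here differ on the direction of the comparison, so that no ratio below is given as a change with red tide. Since a read always adds the same amount to the mean in a given library, a low group mean can be taken apart into the whole reads behind it. A single read added 0.160, 0.243, 0.403 or 0.673 to the 4-library mean, depending on its library, and between 0.0826 and 0.203 to the 7-library mean. The size factors that give these amounts were 1.56, 1.03, 0.620 and 0.372 in the 4-library group, and ranged from 0.702 to 1.73 in the 7-library group with a median of 1.17. Libraries are named by size factor and could not be linked to animals. Values of single libraries are listed below in order of falling size factor, 1.56, 1.03, 0.620 and 0.372.

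The neuronal and synaptic genes were mostly higher in the 4-library mean. PCLO, ANK2, NCAM2 and GRIA4 showed the widest ratios, and UNC13A, NRXN2, NCAM1, STX1A, STMN2 and NEFL stayed within 2-fold. Of the 24 records with more than 3 recovered reads in a group or a mean too high for recovery, 18 (75%) were at least 2-fold higher in the 4-library mean, and 0 were at least 2-fold higher in the 7-library mean. Among all 14929 such records, 3411 (22.8%) were at least 2-fold higher in the 4-library mean and 1586 (10.6%) in the 7-library mean. The log2 of the 4-library mean divided by the 7-library mean had a median of 2.88 over the 24 records and of 0.12 over all 14929. A ratio of at least 10 was found for 11 of the 24 records and for 827 of all records (5.54%). These ratios of pooled means carry no test, and the list was chosen with earlier results of these data known. Records with reads recovered in all 11 libraries have a 7-library mean of at most 6. Among them the median log2 ratio was 3.67 over 16 records of the list and 1.33 over all 4437. The median 4-library mean of the 26 records was 22.3 normalized counts, near the 34 of all records, whereas their median 7-library mean was 1.24 against 32.7. A smaller number of cells of a type and less RNA per cell cannot be told apart in such bulk samples.

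**Figure D1:**
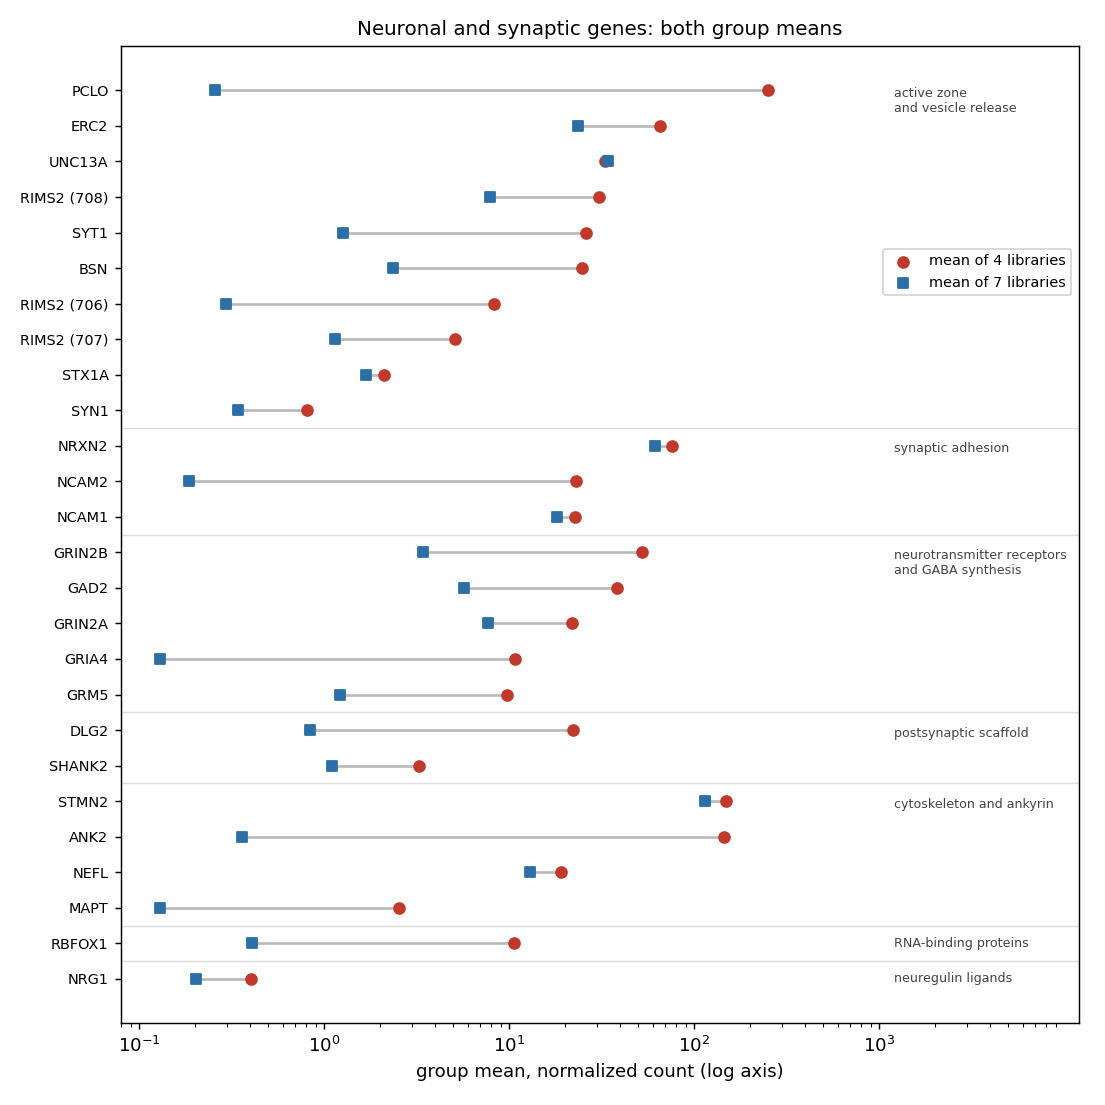
Mean normalized count of the 4 libraries (circles) and of the 7 libraries (squares) for each of the 26 records, on a log axis and grouped by role, with the last digits of the record given for RIMS2. PCLO spans the widest distance, from 0.258 to 252 normalized counts, and the symbols of UNC13A nearly coincide at 34.1 and 33.

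The active zone and vesicle release genes had 10 records of 8 genes, and 7 of the 9 records counted were at least 2-fold higher in the 4-library mean. PCLO (XM_004381474.1) encodes piccolo, a giant scaffold protein of the presynaptic active zone. Its mean was 252 normalized counts over the 4 libraries and 0.258 over the 7, a ratio of 977. The 7-library mean consisted of 2 reads, both from the library of size factor 1.107, and the other 6 libraries had 0 reads. The 95% Poisson interval of these 2 reads allows a ratio between 270.4 and 8064, for counting error only. Without that library the 7-library mean was 0, and the ratio was at least 354. This takes as a floor 3 reads over the 6 remaining libraries together, all in the library in which a read counts most, and so do the other ratios below that are given as at least a value. The 4-library mean was too high for a single solution, since 12 combinations of whole reads fitted it. They held between 568 and 993 reads in all. The ranges over the 12 combinations were 0 to 544, 6 to 663, 88 to 490 and 1 to 264 reads for the 4 libraries as ordered above. All 4 libraries exceeded all 7 in 11 of the 12 combinations, and in the remaining one the library of size factor 1.56 had 0 reads. The largest library held between 36.6% and 78.3% of the normalized counts.

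BSN (XM_004368726.1) encodes bassoon, the partner of piccolo in the active zone scaffold. Its normalized counts in the 4 libraries were 7.06, 12.7, 69.3 and 10.8, a mean of 24.9 ± 29.7 (SD, n = 4). In the 7 libraries they ranged from 0 to 11.8 with a median of 0 and a mean of 2.36 ± 4.36 (SD, n = 7). The groups overlapped through a single library of the 7, that of size factor 1.105, which held 13 of the 19 reads. The ratio of the means was 10.6 (exact two-sided permutation test, p = 0.0182, and 0.299 after Benjamini-Hochberg adjustment over 4437 records). It was 4.3 without the library of size factor 0.620 and 31.4 without that of size factor 1.105.

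SYT1 (XM_004384616.1) encodes synaptotagmin 1, the calcium sensor of fast vesicle fusion. It had 0, 0, 58 and 45.7 normalized counts in the 4 libraries (mean 25.9 ± 30.4, SD, n = 4) and between 0 and 5.03 in the 7, with a median of 0 (mean 1.26 ± 1.89, SD, n = 7). The 4 libraries thus split into 2 without a read and 2 above each of the 7. The ratio of 20.6 (exact permutation p = 0.218) was 12.1 without the library of size factor 0.620 and 41.3 without the 7-library member of size factor 1.19.

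RIMS2 encodes a RIM protein, which tethers vesicles and calcium channels at the active zone. Its 3 records share the gene. The study's methods describe a choice of uniquely mapped reads, and how reads that fit more than 1 transcript were treated is not known here. The record XM_004370706.1 had 0, 1.95, 25.8 and 5.38 normalized counts in the 4 libraries (mean 8.28 ± 11.9, SD, n = 4). Its 7-library mean of 0.294 ± 0.508 (SD, n = 7) came from 3 reads in 2 libraries, with 0 in the other 5. The ratio was 28.1, with limits of 9.63 and 136 from these reads (exact permutation p = 0.0545). It was 8.3 without the library of size factor 0.620, 55 without that of size factor 1.73 and 43 without that of size factor 1.107. The record XM_004370707.1 had 0, 0, 9.67 and 10.8 normalized counts in the 4 libraries and 0 to 2.85 in the 7, with a median of 0.904. Its ratio of 4.44 (exact permutation p = 0.218) was 2.8 without the library of size factor 0.372. For the third record the ratio was 3.86. In all 3 records the library of size factor 1.56 held 0 reads.

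ERC2 (XM_004368755.1), a further structural protein of the active zone, had 24.4, 34.1, 91.9 and 113 normalized counts in the 4 libraries (mean 65.8 ± 43.3, SD, n = 4). The 7-library mean was 23.7, above the range in which reads could be recovered, and the ratio was 2.78. UNC13A (XM_004384506.1) encodes a vesicle priming factor. It had 39.8, 44.8, 9.67 and 37.7 normalized counts (mean 33 ± 15.8, SD, n = 4) against a 7-library mean of 34.1, a ratio of 0.967. In UNC13A the library of size factor 0.620 was the lowest of the 4, unlike in BSN and SYT1, where it was the highest. A pair of further members of the group fell outside the rule for named genes and were named after their values had been seen. STX1A, a membrane protein of the fusion complex, had a ratio of 1.25 from 6 and 13 reads. It became 0.386 when the library of size factor 0.620 was left out, and 3.48 when the 7-library member of size factor 1.105 was left out. SYN1, a vesicle phosphoprotein, had 2 reads in the 4 libraries and 3 in the 7, and no ratio is given.

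The synaptic adhesion genes had 3 records of 3 genes, and 11 of the 14 listed genes had none. NCAM2 (XM_004371382.1), a cell adhesion molecule of the immunoglobulin family, had 0, 3.89, 50 and 37.7 normalized counts in the 4 libraries (mean 22.9 ± 24.7, SD, n = 4). Its 7-library mean of 0.187 consisted of 2 reads in the library of size factor 1.53. The ratio was 123, with limits of 33.9 and 1012 from these 2 reads (exact permutation p = 0.0485, adjusted 0.326). It was 74.2 without the library of size factor 0.620, and at least 32.1 without the only library of the 7 with a read. NCAM1 (XM_004382513.1), the related molecule that also marks natural killer cells, had 9.62, 7.79, 59.6 and 13.5 normalized counts (mean 22.6 ± 24.8, SD, n = 4) and a 7-library mean of 18.2. Its ratio of 1.24 turned to 0.565 without the library of size factor 0.620. NRXN2 (XM_004383769.1), a presynaptic neurexin, had 95.6, 46.7, 51.6 and 110.3 normalized counts (mean 76 ± 31.7, SD, n = 4) against a 7-library mean of 61.8, a ratio of 1.23. The spread among the 4 libraries of NCAM1 and NRXN2 exceeded the difference between their group means.

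The neurotransmitter receptors and the enzyme of GABA synthesis had 5 records of 5 genes, and each of the 5 was at least 2-fold higher in the 4-library mean. GAD2 (XM_004380525.1) encodes a glutamate decarboxylase, which makes the inhibitory transmitter GABA and is also found in pancreatic islets. It had 41.1, 36, 54.8 and 21.5 normalized counts in the 4 libraries (mean 38.3 ± 13.7, SD, n = 4). In the 7 libraries the values ranged from 0 to 15.6 with a median of 2.52 (mean 5.68 ± 6.33, SD, n = 7). All 4 libraries exceeded all 7, and the ratio of the means was 6.76. The exact two-sided permutation p was 0.00606, the smallest that 330 assignments of the libraries allow, and 0.212 after adjustment over the 4437 records. The ratio stayed between 5.79 and 7.75 with any 1 of the 4 libraries left out.

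GRIN2B (XM_004387333.1), a glutamate-binding subunit of the NMDA receptor, had 0.641, 5.84, 142 and 61.9 normalized counts in the 4 libraries (mean 52.5 ± 65.7, SD, n = 4). The 7 libraries ranged from 0 to 7.23 with a median of 2.89 (mean 3.43 ± 3.04, SD, n = 7). The libraries of size factor 1.56 and 1.03 thus lay within the range of the 7, and those of size factor 0.620 and 0.372 far above it. The ratio of 15.3 (exact permutation p = 0.121) was 6.64 without the library of size factor 0.620. GRIA4 (XM_004382528.1), an AMPA receptor subunit, had 0, 1.95, 27.4 and 13.5 normalized counts (mean 10.7 ± 12.6, SD, n = 4). Its 7-library mean of 0.129 was a single read in the library of size factor 1.105. The ratio was 82.7, with limits of 14.9 and 3268 from that read (exact permutation p = 0.0485, adjusted 0.326). It was 39.7 without the library of size factor 0.620 and at least 15 without that of size factor 1.105.

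GRM5 (XM_004385539.1), a metabotropic glutamate receptor, had 0, 1.95, 37.1 and 0 normalized counts in the 4 libraries (mean 9.75 ± 18.2, SD, n = 4) and 0 to 3.62 in the 7, with a median of 0.904 (mean 1.22 ± 1.47, SD, n = 7). A single library, that of size factor 0.620, accounted for 95% of the normalized counts of the 4. The ratio of 8.01 (exact permutation p = 0.545) turned to 0.533 without it. Among the genes of the main list, GRIN2A was the other NMDA receptor subunit with a record, beside GRIN2B. GRIN2A had a ratio of 2.83 and reads in each of the 4 libraries, and was named after its values had been seen.

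The postsynaptic scaffold genes had 2 records of 2 genes. DLG2 (XM_004385499.1), a membrane-associated guanylate kinase that anchors NMDA receptors, had 0.641, 10.7, 33.8 and 43 normalized counts in the 4 libraries (mean 22.1 ± 19.7, SD, n = 4). The 7 libraries had between 0 and 3.41 with a median of 0 (mean 0.839 ± 1.28, SD, n = 7). Of the 4, the library of size factor 1.56 lay within the range of the 7, and the other 3 exceeded it. The ratio of 26.3 (exact permutation p = 0.0242, adjusted 0.326) was 53.7 without the library of size factor 1.17. SHANK2 (XM_004383876.1), a scaffold beneath the receptors, had 1.28, 0.974, 0 and 10.8 normalized counts (mean 3.25 ± 5.03, SD, n = 4) and 0 to 4.53 in the 7, with a median of 0 (mean 1.11 ± 1.94, SD, n = 7). Its ratio of 2.92 (exact permutation p = 0.424) turned to 0.676 when the library of size factor 0.372 was left out, and was 5.98 without that of size factor 1.105.

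The cytoskeleton and ankyrin genes had 4 records of 4 genes. ANK2 (XM_004385903.1) encodes ankyrin B, which links membrane proteins to the spectrin skeleton. Its mean was 145 normalized counts over the 4 libraries and 0.359 over the 7, a ratio of 404. The 7-library mean consisted of 3 reads in the library of size factor 1.19, and the 95% Poisson interval of these reads allows a ratio between 138 and 1957. Without that library the ratio was at least 204. The 4-library mean was fitted by 5 combinations, with 316 to 741 reads in all. Their ranges were 12 to 556, 23 to 215, 37 to 178 and 3 to 163 reads for the 4 libraries as ordered above. In each of the 5 combinations all 4 libraries exceeded all 7, with a lowest value of 7.7 normalized counts against a highest of 2.52.

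STMN2 (XM_004386006.1), a microtubule regulator of growing axons, had the highest 7-library mean of the 26 records. Its means were 149.6 over the 4 libraries and 114 over the 7, a ratio of 1.31, and its reads could not be recovered. NEFL (XM_004382161.1), the light neurofilament chain, had 1.28, 1.95, 32.2 and 40.4 normalized counts in the 4 libraries (mean 19 ± 20.3, SD, n = 4) against a 7-library mean of 12.9. Its ratio of 1.47 turned to 0.915 without the library of size factor 0.372. MAPT (XM_004374258.1), the microtubule-binding protein tau, had 0, 0, 4.84 and 5.38 normalized counts (mean 2.55 ± 2.96, SD, n = 4), which came from 5 reads. Its 7-library mean of 0.129 was a single read in the library of size factor 1.105. The ratio was 19.8, with limits of 3.54 and 780.1 (exact permutation p = 0.218). It was 12.5 without the library of size factor 0.372 and at least 3.59 without that of size factor 1.105.

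Among the RNA-binding proteins, RBFOX1 (XM_004373237.1), a regulator of splicing in neurons and muscle, was the only gene of 4 with a record. It had 0, 1.95, 24.2 and 16.1 normalized counts in the 4 libraries (mean 10.6 ± 11.6, SD, n = 4), and 2 reads in the library of size factor 0.702 made up its 7-library mean of 0.407. The ratio was 26, with limits of 7.19 and 214 (exact permutation p = 0.0909), and it was 14.8 without the library of size factor 0.620. Among the neuregulin ligands, which activate ErbB receptors, NRG1 had 1 read in each group, and no ratio is given.

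**Figure D2:**
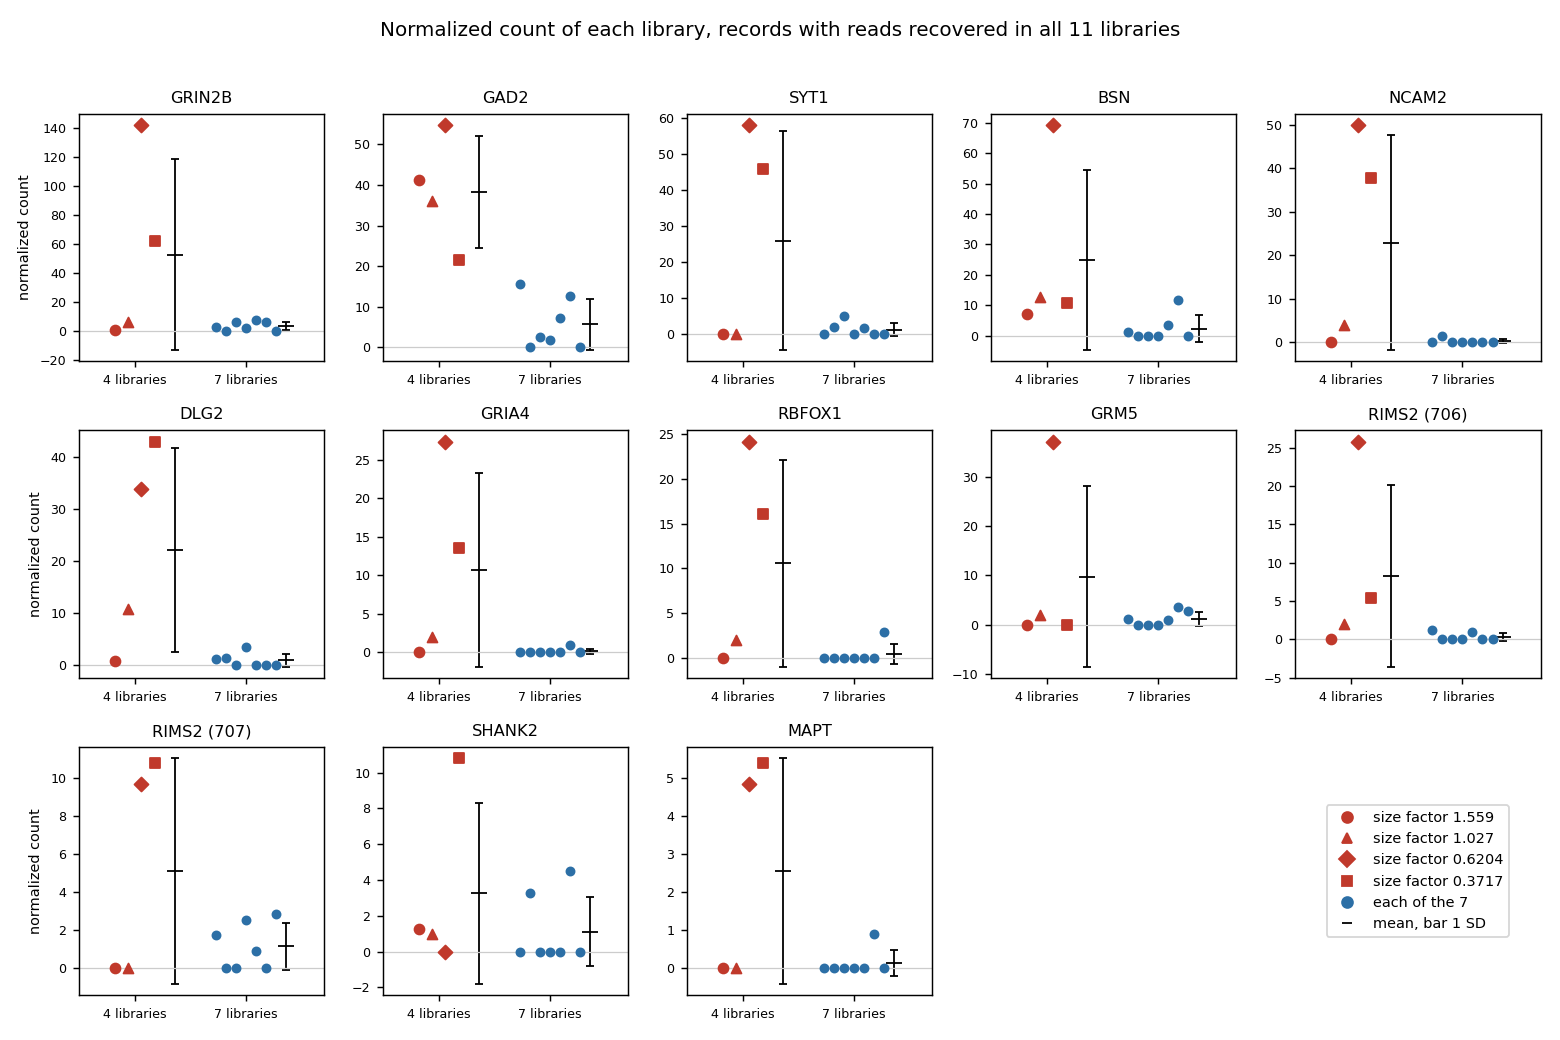
Normalized count of each library for 13 of the 16 records with reads recovered in all 11 libraries, with 1 panel per record and its own linear axis, symbols for the 4 libraries by size factor, and bars for the mean and 1 SD (n = 4 and n = 7). GAD2 is the panel in which the groups do not overlap, with 21.5 as the lowest of the 4 and 15.6 as the highest of the 7.

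The low 7-library means were built from a handful of reads. Reads of the 7 libraries were recovered for 18 of the 26 records. In 9 of the 26 (34.6%) the 7-library mean came from at most 3 reads over all 7 libraries, against 1005 of all 15298 records (6.57%). It was a single read for GRIA4, MAPT and NRG1, 2 reads for PCLO, NCAM2 and RBFOX1, and 3 reads for ANK2, SYN1 and a record of RIMS2. In 7 of these 9 records the reads lay in a single library. The libraries were those of size factor 1.107 for PCLO, 1.19 for ANK2, 1.53 for NCAM2, 1.105 for GRIA4 and MAPT, and 0.702 for RBFOX1 and NRG1, so that no single library of the 7 held them all. The 4 widest ratios, those of PCLO, ANK2, NCAM2 and GRIA4, all divide by 1 to 3 reads.

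**Figure D3:**
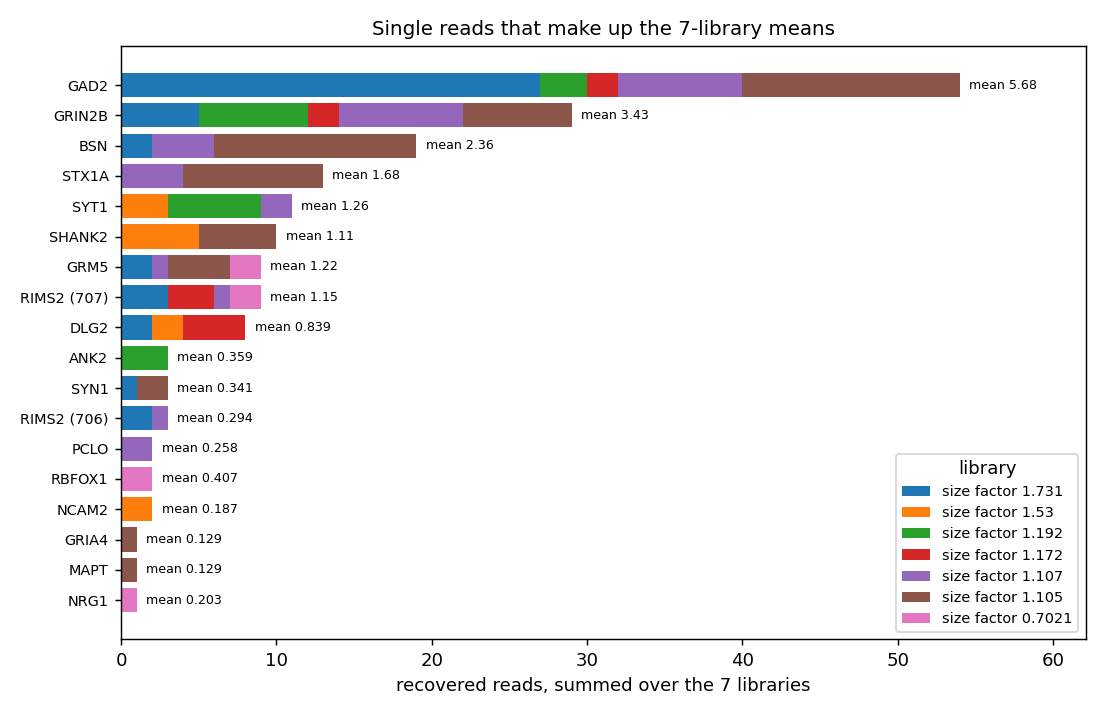
Recovered reads behind the 7-library mean of each of the 18 records for which they could be recovered, as bars of whole reads from 0, coloured by library and labelled with the mean in normalized counts. The lowest 9 bars hold 1 to 3 reads each, and the longest, GAD2, holds 54.

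The 4 libraries contributed unequally. In the 16 records of 15 genes with reads recovered in all 11 libraries, the library of size factor 0.620 accounted for 57% of the summed normalized counts of the 4, and the libraries of size factor 1.56, 1.03 and 0.372 held 5.27%, 8.31% and 29.4%. Over all 4437 records recovered in this way, the shares were 10.1%, 12.7%, 38.2% and 39.1% in the same order of 1.56, 1.03, 0.620 and 0.372. The library of size factor 0.620 was the highest of the 4 in 12 of the 16 records, against 35.2% of the 4437, and that of size factor 0.372 in the other 4, against 37.1%. At least 1 read was present for 5 of the 16 records in the library of size factor 1.56, for 11 in that of 1.03, for 15 in that of 0.620 and for 12 in that of 0.372. These are 31.2%, 68.8%, 93.8% and 75% of the 16, against 59.6%, 59.3%, 71.2% and 61% of all 4437 records. In the 7-library group, the library of size factor 1.105 accounted for 35.5% of the summed normalized counts of the 16 records, against 21.5% over all 4437. What sets these libraries apart was not tested.

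**Figure D4:**
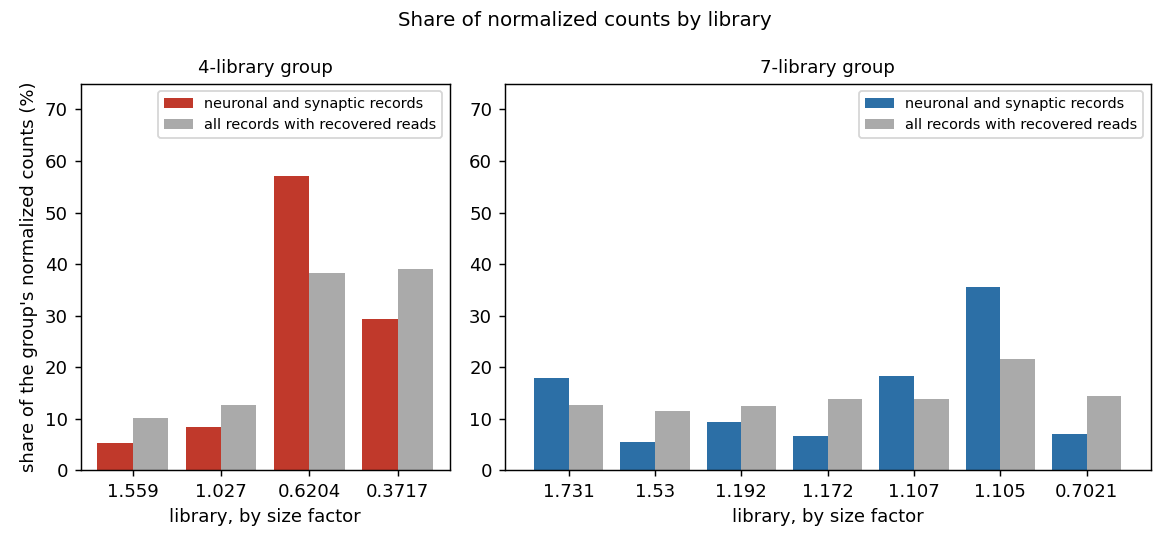
Share of each group's summed normalized counts held by each library, in percent from 0, for the 16 neuronal and synaptic records and for all 4437 records with recovered reads. The library of size factor 0.620 holds 57% of the 4-library counts of the neuronal and synaptic records and 38.2% of those of all records.

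Leaving out single libraries of the 4 was possible for 21 records, of which 16 were at least 2-fold higher in the 4-library mean. This number was 16, 16, 15 and 15 without the libraries of size factor 1.56, 1.03, 0.620 and 0.372. Their median log2 ratio was 2.76 with all 4, was 1.96 when the library of size factor 0.620 was left out, and came to between 2.72 and 2.95 without each of the other 3. With all libraries kept, 22.8% of all 14929 counted records were at least 2-fold higher in the 4-library mean. This share was not recomputed without single libraries, so that the numbers above have no matching value over all records. GRM5 and SHANK2 were the records past 2-fold whose direction turned. PCLO, ANK2 and STMN2 could not be examined in this way.

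**Figure D5:**
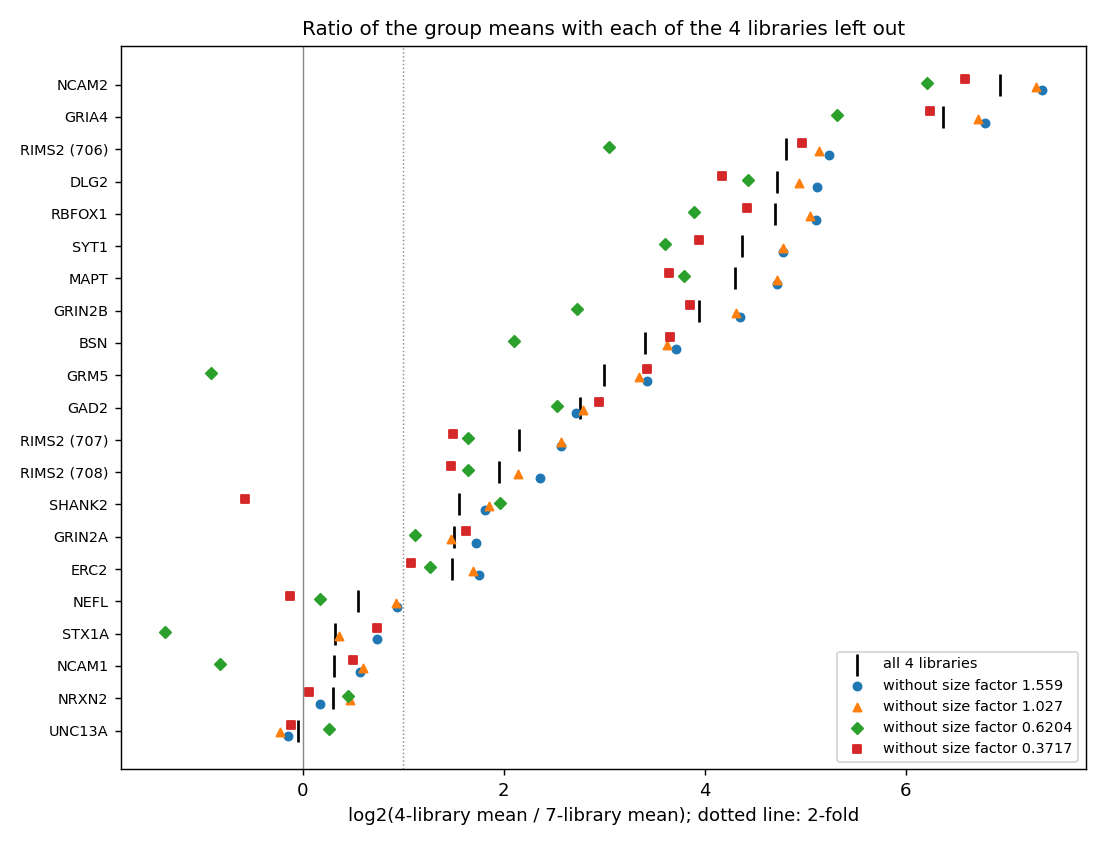
Log2 of the 4-library mean divided by the 7-library mean for 21 records, with all 4 libraries (vertical marks) and with each of the 4 left out (coloured symbols by size factor), beside lines at 0 and at 2-fold. GRM5 moves to -0.91 when the library of size factor 0.620 is left out, and GAD2 stays close to 2.76.

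Single libraries could be compared by exact tests in the 16 records. In 1 of the 16 (6.25%), that of GAD2, all 4 libraries exceeded all 7, as in 124 of the 4437 records (2.79%). The reverse was seen in 0 of the 16 and in 3 of the 4437 (0.0676%). GAD2, BSN, DLG2, NCAM2 and GRIA4 had an unadjusted exact permutation p under 0.05, 5 of 16 records (31.2%), each higher in the 4-library mean, against 633 of 4437 (14.3%) in that direction. After Benjamini-Hochberg adjustment of the exact permutation tests over the 4437 records, 0 of the 16 and 0 of the 4437 passed 0.05, against 659 of the 4437 at an unadjusted p under 0.05 in either direction. The adjusted exact permutation p of the 16 records ranged from 0.212 to 0.944. The number of 5 became 7, 1, 1 and 2 without the libraries of size factor 1.56, 1.03, 0.620 and 0.372, that is 43.8%, 6.25%, 6.25% and 12.5% of the 16, and the share of the 4437 in either direction moved as well, from 14.9% to 15.9%, 8.43%, 5.97% and 6.67%. Recovery reached a 4-library mean of 80 and a 7-library mean of only 6, which favours records that are higher in the 4 libraries. A limit of 6 for both means leaves out each of the 5 records by construction, since their 4-library means were 10.7 or more, and so cannot show what part of the 5 comes from the limits of recovery. The exact permutation p could not fall below 0.00606 in this design. Adjustment over 4437 records then passes 0.05 only if very many records lie at or near that value. The 0 records past 0.05 thus also reflect the number of libraries. The counts over the 16 records are a description and no support for a difference.

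Further synaptic genes outside the list of 54 were described in the same way. Of 34 further genes of presynaptic release, 13 had a record, and 6 of the 12 records counted were at least 2-fold higher in the 4-library mean and 1 in the 7-library mean. The vesicle GTPase RAB3C had means of 15 and 2.2, and was named after its values had been seen because all 4 libraries exceeded all 7 (exact permutation p = 0.00606, adjusted 0.212). NSF, the ATPase that takes fusion complexes apart in most cells, had the highest mean over all libraries among them, with group means of 604 and 675. In this and the following lists the leading gene is the one with the highest mean normalized count over all 11 libraries, which is not corrected for transcript length. Of 37 further receptors, 8 had a record and 6 of the 8 were at least 2-fold higher in the 4-library mean, among them GRIN3A with means of 40 and 2.58. Of these 6 receptors, 4 stayed at least 2-fold higher without the library of size factor 0.620, and 5 without that of size factor 0.372. GRIN3A had 0, 2.92, 70.9 and 86.1 normalized counts in the 4 libraries, and its ratio of 15.5 (exact permutation p = 0.133) was 9.54 without the library of size factor 0.372 and 26.6 without that of size factor 1.105. Of 12 transmitter transporters 5 had a record, all 5 at least 2-fold higher in the 4-library mean. Leading were SLC6A4, the serotonin transporter, with means of 481 and 220, and SLC18A2, the vesicular monoamine transporter, with means of 402 and 194, which are both known from platelets. For 3 of the 5 transporters the libraries could be left out. Of these, 2 stayed at least 2-fold higher without that of size factor 0.620, and 2 without that of size factor 0.372. Of 30 further adhesion and guidance genes 7 had a record, and 5 of the 7 were at least 2-fold higher in the 4-library mean. LRRTM3, a postsynaptic adhesion protein, had means of 34.4 and 0.165, the second from 2 reads, a ratio of 209 with limits of 57.7 and 1722. It had 0, 3.89, 102 and 32.3 normalized counts in the 4 libraries, and the ratio was 73 without the library of size factor 0.620 and at least 48.3 without that of size factor 1.73, which held both reads of the 7.

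Among 18 further postsynaptic scaffold genes, 10 had a record, and 5 of the 11 records counted were at least 2-fold higher in the 4-library mean. HOMER2 led over all libraries with means of 42.8 and 53.4, and HOMER1 had the highest 4-library mean, with 79.6 against 18.9 in the 7, a ratio of 4.2. The 4 libraries of HOMER1 had 37.8, 43.8, 72.5 and 164 normalized counts, so that this ratio leans on the library of size factor 0.372. Among 17 further genes of the neuronal cytoskeleton and RNA binding, 9 had a record, and 3 of the 6 records counted were at least 2-fold higher in the 4-library mean, with MAP1B leading at 1479 and 616. For 2 of these 3 the libraries could be left out, and 1 stayed at least 2-fold higher without that of size factor 0.372. Over these 6 lists together, 30 of 49 records counted were at least 2-fold higher in the 4-library mean and 1 in the 7-library mean, beside 22.8% and 10.6% of all records, which also apply to the single lists and to the markers below. The median of their log2 ratios was 1.26. In their 34 records with recovered reads, the summed normalized counts in the 4 libraries were 72.5, 87.6, 658 and 527. In the 16 records of the main list the sums were 50.7, 79.8, 548 and 282. The lists differed in this, since the sums were 0, 4.87, 12.9 and 72.6 in the 3 records of transmitter transport and 7.06, 17.5, 6.45 and 35 in the 5 of the postsynaptic scaffold.

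Markers of other cell types were examined beside them. Of 18 glial markers 7 had a record, 4 at least 2-fold higher in the 4-library mean and 1 in the 7-library mean, with summed means of 442 and 989. Over all libraries SLC1A2, a glutamate transporter, led with means of 152 and 628, and CNP had the highest 4-library mean with 250.2 against 349.6 in the 7, while AQP4, the water channel of astrocytes, had means of 19.6 and 2.32, a ratio of 8.42 that was 4.06 without the library of size factor 0.620. The summed normalized counts of the 5 glial records with recovered reads were 19.9, 22.4, 70.9 and 45.7 in the 4 libraries and 2.71 to 20.1 in the 7. In PMP22, a myelin protein of peripheral nerve with a ratio of 4.33, all 4 libraries exceeded all 7 (exact permutation p = 0.00606, adjusted 0.212), and it was named for this, as RAB3C was. GFAP, named after its values had been seen, had 4 reads in the 4 libraries and 2 in the 7, and MBP, MOG and SOX10 had no record. Of 20 leukocyte markers 8 had a record, 0 at least 2-fold higher in the 4-library mean and 4 in the 7-library mean, with summed means of 9253 and 8155. LAPTM5, the leading gene, had means of 7673 and 4508, and each of the other leukocyte markers with a record was lower in the 4-library mean. The order of the summed means thus rests on LAPTM5, and the median log2 ratio of the 8 records was -0.85. CSF3R, a receptor of neutrophils, had means of 425 and 1990. Of 10 natural killer cell markers 3 had a record, 0 at least 2-fold higher in the 4-library mean and 1 in the 7-library mean, and TBX21 led with means of 16.9 and 27. NCAM1 is therefore read beside summed means of 24.8 and 36.6 for these 3 markers.

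Of 12 platelet and erythroid markers 6 had a record, 3 at least 2-fold higher in the 4-library mean and 1 in the 7-library mean, with summed means of 10707 and 3887. TUBB1, a platelet tubulin, led with means of 6392 and 1422, and ITGA2B had means of 3996 and 1919. The red cell genes were higher in the 7-library mean, with means of 168 and 467 for ALAS2 and of 13.9 and 18.5 for SLC4A1. Of 20 markers of other tissues 6 had a record, 4 at least 2-fold higher in the 4-library mean and 1 in the 7-library mean. For 3 of these 4 the libraries could be left out, and 0 of the 3 stayed at least 2-fold higher without the library of size factor 0.620 and 1 without that of size factor 0.372. TTN, the giant protein of muscle, led with means of 1617 and 311. Values of all 11 libraries could not be recovered for the leukocyte, platelet and erythroid markers, but those of the 4 libraries could for a few of them, which were named after their values had been seen. GP1BA, a platelet glycoprotein, had 24.4, 44.8, 179 and 40.4 normalized counts in the 4 libraries. GP9, its partner on platelets, had 48.1, 45.8, 152 and 18.8, and SLC4A1, the anion exchanger of red cells, had 7.06, 3.89, 33.8 and 10.8. In all 3 the library of size factor 0.620 was the highest, and it accounted for 59.9% of their summed counts, against 28.1% over all 9632 records with reads recovered in the 4 libraries. Its share was 44.6% in 5 glial records, where AQP4 held 50 of its 70.9 normalized counts, and 43.2% in 4 records of other tissues. Reads of these 5 and 4 records were recovered in all 11 libraries, and over all 4437 such records its share was 38.2%. It was the highest library in 14 of the 23 records of the main list with reads recovered in the 4 libraries, against 31.3% of the 9632. The leukocyte markers SPI1 and CORO1A had 53.9, 36, 32.2 and 43 and 22.5, 19.5, 33.8 and 37.7 normalized counts, so that this library accounted for 23.7% of their sum. The part of any of these cell types in the levels of the neuronal and synaptic genes was not tested.

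The genes of the list were long. The median gene span, introns included, was 375 kb over the 24 genes and 23.3 kb over all 9641 symbols, and 18 of the 24 lay in the longest 20% of symbols, above 76.3 kb. Over the 2090 counted records of that longest class the median log2 ratio was 0.07, and 24% were at least 2-fold higher in the 4-library mean. Among records with reads recovered in all 11 libraries the median log2 ratio was 1.72 over the 605 of that class and 1.33 over all 4437, and it was 3.94 over the 13 of the list in that class. Across the 15 genes with reads in all 11 libraries, which are not independent replicates and share the same libraries, total reads and gene span had a Pearson r of 0.09 on log2 scales and a Spearman rho of 0.03, given as a description. With the reads of the 4 libraries alone r was 0.19 and rho 0.05, and with those of the 7 alone r was -0.17 and rho -0.22. The length of the transcripts was not used here, so that an order of genes by their mean is one of normalized counts and not of transcript number.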

How the data were processed

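RNA-seq of manatee buffy coats covered 4 animals of the red tide group and 7 controls. The authors trimmed reads with Cutadapt, mapped them to TriManLat1.0 with Bowtie2, removed duplicates and tested the groups through DEB, a web tool built on DESeq and edgeR. The authors' deposited signal is the mean of counts divided by size factors, over all libraries and per group. The other columns of the deposited table hold the authors' fold change, its log2 value, p-value and adjusted p-value, and were not used. No column holds a single sample, and 0 columns of that kind were left unused.

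Reads per library were recovered for 4-library means up to 80 (9632 of 9634 records) and 7-library means up to 6 (4455 of 4505), where a single combination of whole reads gave the mean, and the procedure was tested on simulated data. Reads of all 11 libraries existed for 4437 records. Total reads per library were not analysed here, and size factors stand for relative depth. Symbols came from the RefSeq table of TriManLat1.0; 1658 records matched with their version and 10080 without it. Records with at most 3 reads in both groups (369, of which 2 were listed genes) were given no ratio. Intervals are 95% exact Poisson limits of the 7-library reads. They take reads as independent, but sequencing was paired-end. Whether both mates of a fragment were counted is not known here, and if they were, the intervals are too narrow. Tests were exact two-sided permutation tests of mean normalized counts, adjusted over 4437 records. The planned protein length was replaced by gene span. Members and lists were chosen with earlier results of these data known. Named with values were PCLO, ANK2, the 12 further genes with the highest 4-library mean among fully recovered records, the 6 genes with the highest 7-library mean, and any gene without overlap or at least 2-fold lower in the 4-library mean; of other lists, at most the 3 most abundant and the 3 with the largest ratio. Alternatives were a pseudocount of 1, a fold of 4, a mean of at least 1, 1 record per symbol, centring, other read limits, a log2 scale and leaving out libraries. Leaving out libraries of the 7 or for other lists, the floor of 3 reads, its place in the library in which a read counts most, and the gene span were chosen after seeing the data. Computations used Python 3.11.15, numpy 2.4.6, pandas 2.3.3, scipy 1.17.1 and matplotlib 3.10.9.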

Additional observations from a re-analysis of the deposited data

Results flagged for a closer look

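In each group of recovered libraries, the gap between the highest or lowest library and its neighbour was divided by the range of the group. Of 41 groups of libraries examined, 17 held a library far from the others by this measure, and in each the library was the highest. The limits used pass about 1 in 20 groups by chance for normally distributed values, a rate that does not apply to counts mostly at 0. In the 4 libraries the groups so picked were those of NCAM1 (0.891), NRG1 (1), SYN1 (1), GRM5 (0.947) and BSN (0.91), all through the library of size factor 0.620, and SHANK2 (0.881) through that of size factor 0.372. In the 7 libraries the value was 1 for NRG1, MAPT, RBFOX1, GRIA4, NCAM2, ANK2 and PCLO, in which a single library held every read. It was 0.681 for SYN1, 0.693 for BSN, 0.61 for SYT1 and 0.617 for DLG2. With every read in a single library the value is 1 by construction.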

How the results depend on the processing

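No paired analysis was possible because the deposited means carry no replicate numbers. The number of 18 records at least 2-fold higher in the 4-library mean was 14 to 19 under a pseudocount of 1, a fold of 4, a mean of at least 1, 1 record per symbol, centring on all records and no floor of 3 reads, and 0 were at least 2-fold higher in the 7-library mean under the first 5 of these. The median log2 ratio of 2.88 became 2.05 with a pseudocount of 1, which lowers ratios of small means by construction. Without single libraries of the 4, that of 21 records lay between 1.96 and 2.95. Without single libraries of the 7, chosen after seeing the data, the number at least 2-fold higher lay between 15 and 16 of 16 records. These records have a 7-library mean of at most 6, which favours a higher 4-library mean. Over all 4437 records with reads recovered in all 11 libraries the median log2 ratio was 1.33, so that most of them were also at least 2-fold higher. Their exact share was not counted. The 9 records with at most 3 reads in the 7 libraries became 3 with a limit of 1 read. The 5 records with an unadjusted exact permutation p under 0.05 became 0 with both means limited to 6, which leaves out all 5 by construction, and 1 to 7 without single libraries of the 4. Over all records the share was 14.9%, became 4.75% under that limit and lay between 5.97% and 15.9% without single libraries. The record without overlap became 0 under that limit, which leaves it out as well, 5 without the library of size factor 1.56 and 1 without each of the other 3. Of all records, 2.79% had all 4 libraries above all 7, which became 0.491% under the limit, 11.6% without the library of size factor 1.56 and 3.45% to 4.6% without each of the others. Without single libraries of the 4, the log2 ratio of GRM5 ranged from -0.91, without the library of size factor 0.620, to 3.42, and that of SHANK2 from -0.57, without that of size factor 0.372, to 1.96. A single library held 95% of the normalized counts of GRM5 and 82.7% of those of SHANK2 in the 4. Of 105 alternatives for 21 single records, 99 kept their direction. Depth limits the ratios that divide by 1 to 3 reads, whose intervals are wide.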
